A study of Homo sapiens with 21 samples.

Results

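Doxorubicin (DOX) is an anthracycline that traps topoisomerase II on DNA and leaves double-strand breaks. The comparison described here set 3 libraries of BJ cells at passage P11 given DOX at 50 ng/ml against 3 libraries of BJ cells at the same passage given DMSO, the solvent control. BJ is a line of human skin fibroblasts with a limited lifespan in culture. The members are all genes that passed a filter on low counts, 14826 of the 61544 genes in the table, in 6 of the 21 libraries of the series. The series also holds passages P3 to P33, and P33 and P3 (3 libraries each) are used below only to set the DOX change beside the change over the culture lifespan. The length of the DOX exposure and the time of harvest are not given in the labels, and nothing in the labels tells whether replicates come from separate cultures; the p-values therefore reflect the spread among these libraries alone, and that spread may be technical.

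A cell that meets a DNA break activates the kinases ATM and ATR, which stabilise the transcription factor p53. p53 raises the cyclin-dependent kinase (CDK) inhibitor p21, encoded by CDKN1A, and p21 lets the retinoblastoma family and the DREAM complex shut down the genes of DNA replication and mitosis. When the damage persists the arrest becomes senescence, known in fibroblasts for loss of lamin B1, altered chromatin, a larger lysosomal compartment and a secretory phenotype (SASP) of cytokines, proteases and growth factor modulators.

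The libraries held 21677851 to 27194352 counts with DOX and 18174331 to 24654064 counts with DMSO. The first principal component of log2 CPM (a gene's counts scaled to a common library total) took 74.5% of the variance and separated the 3 DOX libraries from the 3 DMSO libraries. The share of counts from mitochondrial genes was 6.66 to 7.17% with DOX and 5.90 to 6.34% with DMSO. All 14 fibroblast marker genes passed the filter, and their summed level was 42244 to 43076 CPM with DOX and 37908 to 39258 CPM with DMSO. Of markers of other cell types, KRT5, the basal keratinocyte keratin, had 0 reads in all 6 libraries, and 5 of 11 keratinocyte, 2 of 6 endothelial, 2 of 7 leukocyte, 2 of 6 melanocyte and 5 of 8 adipocyte and smooth muscle markers passed. The summed keratinocyte list was 332 to 414 CPM with DOX and 305 to 355 CPM with DMSO, the leukocyte list 1.95 to 2.34 CPM with DOX and 0.581 to 0.933 CPM with DMSO, the melanocyte list 51.2 to 52.7 CPM with DOX and 72.5 to 75.2 CPM with DMSO, the endothelial list 2.42 to 2.84 CPM with DOX and 2.48 to 3.96 CPM with DMSO, and the adipocyte and smooth muscle list 48.6 to 52.0 CPM with DOX and 49.4 to 53.9 CPM with DMSO. Most of the keratinocyte sum came from DSP, the desmosomal gene, and the part of these markers in the results below was not tested.

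By edgeR's quasi-likelihood test, 5212 genes changed at a Benjamini-Hochberg adjusted p under 0.05, which is 35.2% of those tested. Of these, 2495 rose with DOX (16.8%) and 2717 fell (18.3%), and the median log2 fold change over all genes was 0.00. A change of at least 2-fold was called for 488 genes that rose (3.29%) and 509 that fell (3.43%). In what follows, a gene is said to rise or fall only where it passed that test, levels are CPM on TMM-scaled libraries, errors of levels are SD over 3 libraries, and errors of log2 fold changes (DOX over DMSO) are standard errors. A list of genes is counted over the members that did not reach the count filter through 1 group alone (written below as reaching it in both groups). A member that passed through 1 group alone was kept for its level there, which favours a difference in that direction. Over all 13904 genes of that kind, 16.2% rose and 18.4% fell, with a median log2 fold change of 0.00. Among all genes tested, the DOX and DMSO libraries did not overlap in level for 6805 (45.9%), a larger share than the 35.2% called. Lack of overlap, given below for single genes, is therefore common and is not by itself a call.

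**Figure D1:**
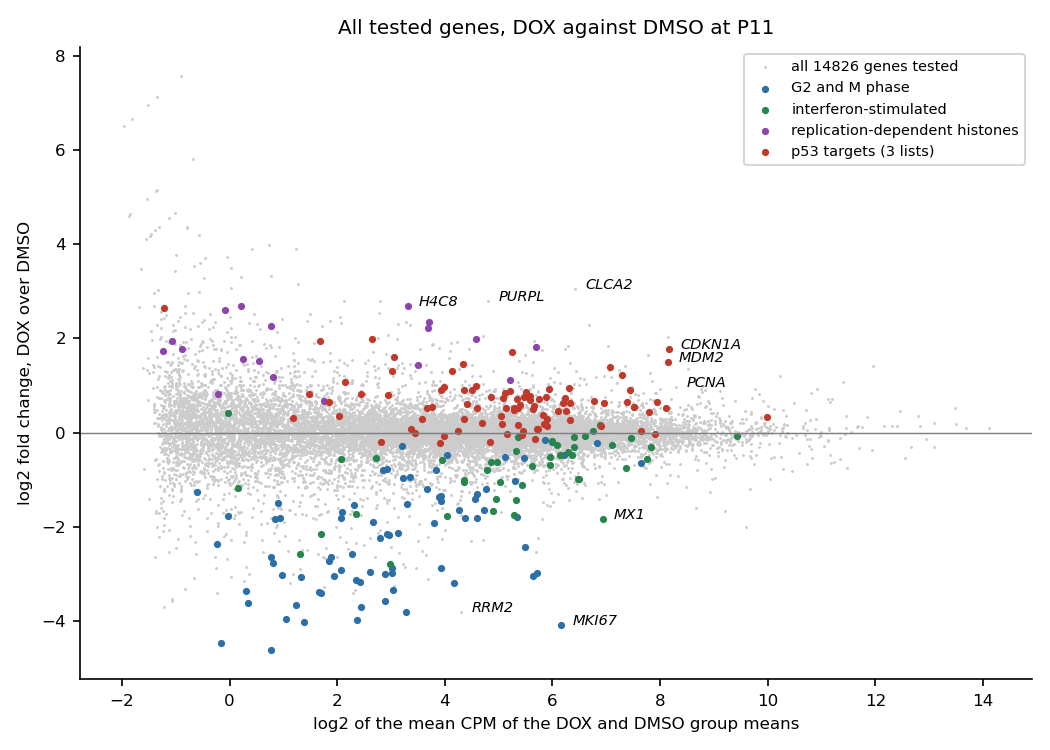
Each point is 1 of the 14826 genes tested, with its mean level on the x axis (log2 CPM) and its log2 fold change of DOX over DMSO on the y axis. Genes of the G2 and M phases and interferon-stimulated genes lie mostly below 0, p53 targets and replication-dependent histones mostly above, from MKI67 at -4.08 to CLCA2 at 3.06 among the genes named.

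The senescence panel changed in both directions. Cell-cycle inhibitors of the p53 and INK4 families were measured first. CDKN1A, the p21 gene, had 460.2, 455 and 423 CPM with DOX, against 128, 130.2 and 135 CPM with DMSO. The groups were far apart, with a log2 fold change of 1.77 ± 0.07 (edgeR, adjusted p = 6.73e-13). CDKN2B, which encodes the CDK4 and CDK6 inhibitor p15, had 30.8, 32.3 and 36.3 CPM with DOX, against 16.7, 16.9 and 15.5 CPM with DMSO. Every DOX library was above every DMSO library, and the log2 fold change was 1.01 ± 0.08. CDKN2A, the gene of p16 and ARF, had 5.22, 4.91 and 3.58 CPM with DOX, against 5.30, 4.45 and 4.65 CPM with DMSO. Its groups overlapped and it did not pass the test (log2 fold change -0.07 ± 0.16, adjusted p = 0.769). RB1, the retinoblastoma gene itself, averaged 80.3 ± 7.20 CPM with DOX and 80.7 ± 4.39 CPM with DMSO and did not pass either.

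Markers of proliferation and of the nuclear envelope fell. MKI67, which encodes the proliferation antigen Ki-67, had 9.14, 6.28 and 8.47 CPM with DOX, against 138, 150.1 and 119 CPM with DMSO. The highest DOX library lay under the lowest DMSO library, with a log2 fold change of -4.08 ± 0.11 (adjusted p = 1.80e-14), the largest fall among the protein-coding genes with at least 5 CPM in the higher group. LMNB1, the lamin B1 gene, had 2.07, 2.80 and 2.23 CPM with DOX, against 17.8, 15.3 and 15.9 CPM with DMSO. Those groups did not overlap and the log2 fold change was -2.80 ± 0.13. HMGB2, a chromatin protein lost in senescent fibroblasts, averaged 36.9 ± 2.38 CPM with DOX and 89.1 ± 7.40 CPM with DMSO. GLB1, which encodes the lysosomal beta-galactosidase behind the senescence stain, had 44.1, 44.2 and 48.7 CPM with DOX, against 64.7, 63.7 and 63.5 CPM with DMSO. All 3 DOX libraries were lower, so that the transcript fell by 0.49 (SE 0.07) on the log2 scale. 

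The secreted genes of the panel went both ways. GDF15, a stress cytokine, had 26.5, 30.3 and 26.2 CPM with DOX, against 14.7, 14.7 and 16.7 CPM with DMSO. It rose without overlap, by 0.85 ± 0.09 on the log2 scale. IL6 had 6.88, 8.17 and 8.002 CPM with DOX, against 10.7, 10.5 and 11.7 CPM with DMSO, and CXCL8, the chemokine interleukin 8, had 0.962, 0.963 and 0.465 CPM with DOX, against 2.43, 2.25 and 2.16 CPM with DMSO. Both of these inflammatory genes fell with no overlap between the groups. Log2 fold changes were -0.52 ± 0.11 for IL6 and -1.496 ± 0.26 for CXCL8 (edgeR, adjusted p = 0.000170). CXCL8 was low in both groups and reached the count filter in the DMSO group only, so the filter favoured a higher level with DMSO.

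**Figure D2:**
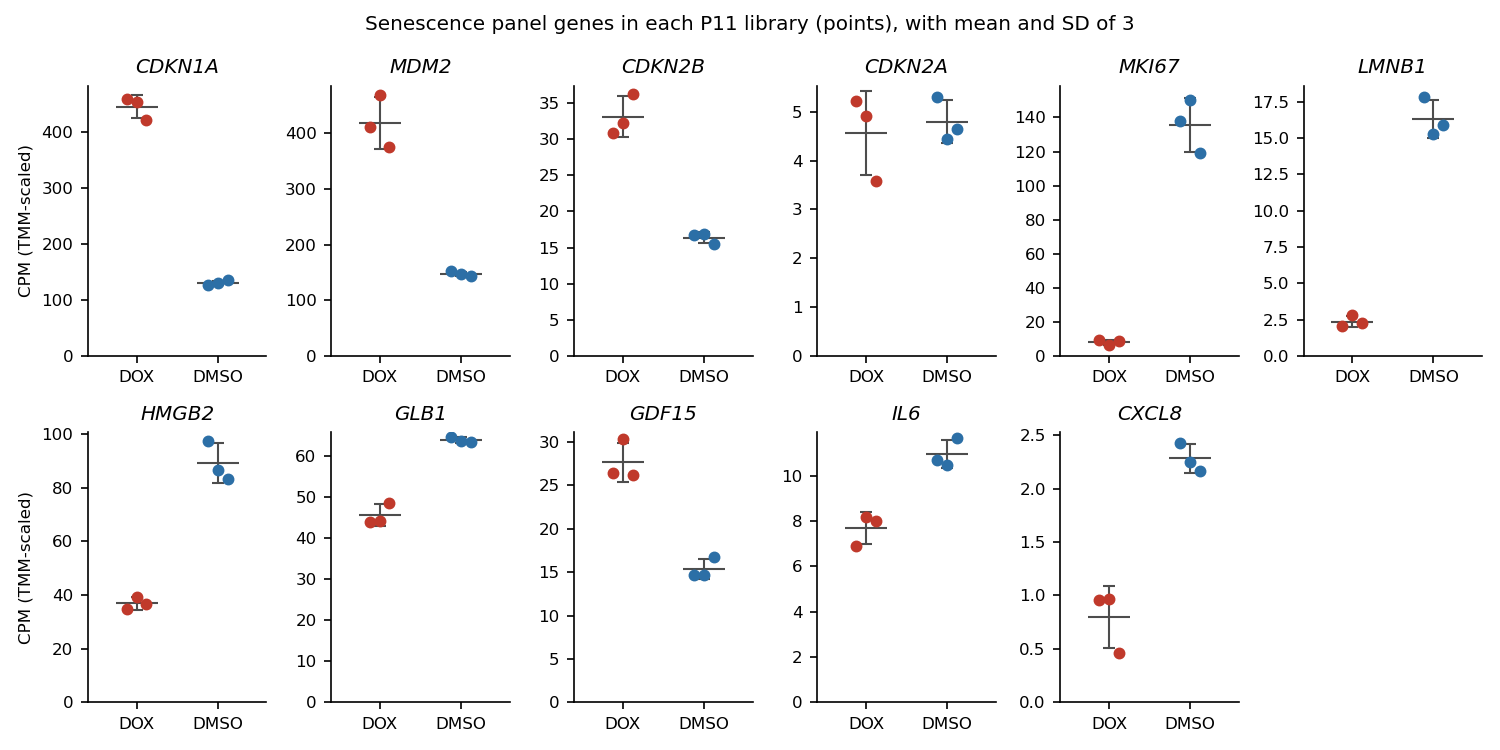
Each panel gives the level of 1 gene (y axis, CPM on TMM-scaled libraries) in the 3 DOX libraries and the 3 DMSO libraries, with points for libraries and bars for the mean and SD. CDKN1A, MDM2, CDKN2B and GDF15 are higher with DOX, CDKN2A overlaps between the groups, and the remaining 6 genes are lower with DOX.

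Most genes on the lists of p53 targets rose. MDM2, the ubiquitin ligase that degrades p53 and is itself a p53 target, had 412, 469 and 376 CPM with DOX, against 152, 147 and 144 CPM with DMSO. There was no overlap and the log2 fold change was 1.502 ± 0.08. PPM1D, the phosphatase that ends the checkpoint, averaged 59.4 ± 4.83 CPM with DOX and 36.9 ± 0.862 CPM with DMSO, and HIPK2, a kinase that phosphorylates p53, averaged 57.3 ± 8.11 CPM with DOX and 35.5 ± 3.10 CPM with DMSO; both rose. MDM4, the second p53 inhibitor, averaged 36.7 ± 0.647 CPM with DOX and 35.5 ± 2.05 CPM with DMSO and did not pass.

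Among the p53 targets of arrest and feedback, 17 of 22 rose and the other 5 did not pass, with a median log2 fold change of 0.67. GADD45A, a stress sensor that interferes with the G2 kinase, averaged 196 ± 11.9 CPM with DOX and 74.2 ± 7.73 CPM with DMSO (log2 fold change 1.40 ± 0.08). BTG2, an antiproliferative cofactor of mRNA decay, averaged 44.8 ± 2.65 CPM with DOX and 24.8 ± 0.234 CPM with DMSO. SESN1 and SESN2, sestrins that restrain the growth kinase mTORC1, rose by 1.00 ± 0.08 and 1.31 ± 0.13. E2F7, a repressor member of the E2F family and a p53 target, averaged 19.8 ± 1.36 CPM with DOX and 10.5 ± 0.390 CPM with DMSO, while the activator E2F1 fell, as given below. INKA2, an inhibitor of the kinase PAK4, rose by 1.61 ± 0.11 and PLK2, a polo-like kinase of G1, by 0.94 ± 0.06.

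Among the p53 targets linked to cell death, 15 of 18 rose, 2 did not pass and 1 fell, with a median of 0.71. APAF1, the apoptosome scaffold, which is named after its values were seen, fell by 0.21 (SE 0.07), a call lost without DOX replicate 3 or any 1 of the DMSO replicates. Here and below, counts given with a library left out are over all tested members. Receptors of the death ligand TRAIL were among the genes that rose. TNFRSF10C, a decoy receptor, had 10.8, 8.72 and 10.4 CPM with DOX, against 2.59, 2.36 and 2.59 CPM with DMSO. It rose by 1.98 ± 0.14, against 0.87 ± 0.07 for the decoy TNFRSF10D, 1.08 ± 0.16 for the death receptor TNFRSF10A and 0.66 ± 0.06 for the death receptor TNFRSF10B. FAS, the receptor of the FAS ligand, averaged 74.04 ± 4.76 CPM with DOX and 44.04 ± 1.28 CPM with DMSO. SPATA18, which acts in the removal of damaged mitochondria, averaged 218 ± 8.31 CPM with DOX and 93.7 ± 4.02 CPM with DMSO (log2 fold change 1.22 ± 0.06). BBC3, which encodes the death activator PUMA, had 11.1, 8.81 and 9.30 CPM with DOX, against 5.46, 5.55 and 6.02 CPM with DMSO, and its groups did not overlap. PMAIP1, which encodes the related activator NOXA, had 13.8, 14.5 and 13.3 CPM with DOX, against 16.2, 15.8 and 16.3 CPM with DMSO. The groups did not overlap, but it did not pass the test (log2 fold change -0.21 ± 0.09, adjusted p = 0.0625).

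Of the p53 targets in repair and metabolism, 34 of 48 rose and the other 14 did not pass, with a median of 0.53. The repair genes DDB2 and XPC, which find ultraviolet damage, rose by 0.78 ± 0.07 and 0.43 ± 0.07, and POLH, the polymerase that crosses damaged bases, averaged 80.3 ± 1.15 CPM with DOX and 42.2 ± 2.49 CPM with DMSO. RRM2B, the p53-induced subunit of ribonucleotide reductase, had 232, 233 and 216 CPM with DOX, against 123, 122 and 119.6 CPM with DMSO. Every DOX library was above every DMSO library, whereas RRM2, the subunit used in S phase, had 2.63, 2.89 and 2.37 CPM with DOX, against 36.7, 35.9 and 37.5 CPM with DMSO. The pair thus moved in opposite directions, with log2 fold changes of 0.90 ± 0.06 for RRM2B and -3.80 ± 0.10 for RRM2. FDXR, a mitochondrial reductase known as a radiation marker, averaged 29.4 ± 2.34 CPM with DOX and 10.8 ± 0.429 CPM with DMSO; CYFIP2, a regulator of actin, 58.6 ± 1.95 CPM with DOX and 17.9 ± 0.787 CPM with DMSO; TIGAR, a brake on glycolysis, 25.2 ± 1.45 CPM with DOX and 10.1 ± 0.734 CPM with DMSO; and ACER2, a ceramidase, 5.13 ± 0.325 CPM with DOX and 1.30 ± 0.273 CPM with DMSO.

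The long noncoding RNA PURPL, a p53-induced transcript that restrains p53, had 50.9, 46.3 and 48.2 CPM with DOX, against 6.75, 8.51 and 5.81 CPM with DMSO. The groups were wide apart and its rise of 2.79 ± 0.10 (adjusted p = 6.73e-13) was the largest among long noncoding RNA genes with at least 5 CPM in the higher group. Its promoter is shown because it holds a full p53 response element. The element was searched as a pair of adjoining half-sites with no spacer, on both strands, in promoter windows of RefSeq (GRCh38.p14) that run from 250 bases before to 50 bases after the gene's start. Such windows were found for 10198 of the 12581 protein-coding genes tested, and 1 of them, PTCHD4, held the element (0.00981%), as did that of PURPL. PTCHD4, a Patched-like gene on the repair and metabolism list that is named after its values were seen, averaged 79.6 ± 3.17 CPM with DOX and 57.5 ± 5.67 CPM with DMSO and rose by 0.47 ± 0.07. Most p53 targets had no such match in this window, which says only that these letters were not found there. The 44 bases of PURPL lie on the plus strand at chr5:27472153-27472196, with the element in capitals.
PURPL: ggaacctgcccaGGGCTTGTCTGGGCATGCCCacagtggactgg

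Of 25 genes of the BCL2 family, caspases and inhibitors of apoptosis, 4 rose and 7 fell. The shares over all genes counted in this way were 16.2% and 18.4%. Over all tested members of the list, 4 rose and 8 fell. Leaving out DMSO replicate 1 left 2 that rose, and leaving out DOX replicate 3 left 5 that fell. BCL2L1, which encodes the survival protein BCL-XL, had 91.01, 91.6 and 88.9 CPM with DOX, against 67.2, 66.4 and 63.4 CPM with DMSO. It rose by 0.46 ± 0.06 with no overlap, whereas BCL2 itself was low and fell by 1.24 (SE 0.24), at 1.14 ± 0.280 CPM with DOX and 2.70 ± 0.574 CPM with DMSO. MCL1, another survival gene, averaged 268 ± 14.5 CPM with DOX and 282 ± 5.08 CPM with DMSO and did not pass. BMF, a death activator of the BH3-only class, had 5.11, 4.77 and 3.77 CPM with DOX, against 16.9, 15.2 and 14.8 CPM with DMSO. It fell by 1.77 (SE 0.12), against the rise of BBC3. BAX, the pore-forming effector, averaged 22.4 ± 2.03 CPM with DOX and 18.4 ± 0.590 CPM with DMSO; its log2 fold change of 0.29 ± 0.09 lost its call without the first DOX library (adjusted p = 0.0837) and without the first DMSO library (adjusted p = 0.0596).

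Of 27 sensors and kinases of the damage checkpoint, 3 rose and 7 fell, with a median of -0.04, beside 16.2% that rose and 18.4% that fell of all genes counted in this way. ATM, the kinase of double-strand breaks, averaged 206 ± 15.8 CPM with DOX and 174 ± 25.2 CPM with DMSO and its call (log2 fold change 0.24 ± 0.09, adjusted p = 0.0418) was lost when either of DOX replicates 1 and 3 or DMSO replicates 1 and 3 was left out (adjusted p up to 0.244) and with the replicate number as a block (adjusted p = 0.0592), while ATR averaged 50.1 ± 3.85 CPM with DOX and 45.6 ± 4.50 CPM with DMSO and did not pass. CHEK1, the kinase of replication stress, fell by 0.43 (SE 0.09), and CHEK2 did not pass (0.20 ± 0.11). CLSPN, the claspin adaptor made in S phase, had 2.03, 2.16 and 3.40 CPM with DOX, against 13.7, 13.01 and 13.6 CPM with DMSO. It fell by 2.42 (SE 0.15) with no overlap between the groups. The count of 3 that rose (ATM, and RAD1 and RAD17, named after their values were seen) was 0 without DOX replicate 3 or DMSO replicate 1, and 1 without DOX replicate 1 or DMSO replicate 3.

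Both isoforms of topoisomerase II, the target of DOX, fell. TOP2A, the isoform of dividing cells, had 14.1, 14.3 and 14.1 CPM with DOX, against 75.1, 76.3 and 77.1 CPM with DMSO. It fell by 2.43 (SE 0.07) with no overlap. TOP2B, the isoform found in all cells, had 287, 286 and 268 CPM with DOX, against 365, 331 and 340.4 CPM with DMSO, and fell by 0.30 (SE 0.06). TOP1 averaged 309 ± 11.7 CPM with DOX and 274 ± 24.7 CPM with DMSO and TDP2, which removes trapped topoisomerase II, 35.3 ± 3.20 CPM with DOX and 39.5 ± 3.92 CPM with DMSO; neither passed. Among genes of DOX export and reduction, ABCB1, the P-glycoprotein pump, had 1.29, 0.780 and 1.26 CPM with DOX, against 0.162, 0.439 and 0.317 CPM with DMSO. It was higher with DOX (log2 fold change 1.92 ± 0.39), but it reached the count filter in the DOX group only. The aldo-keto reductases AKR1C1, AKR1C2 and AKR1C3, which reduce anthracyclines among other substrates, fell by 0.93, 1.49 and 1.14; they are close relatives whose reads can be shared. CBR1, the main carbonyl reductase of the drug, averaged 24.8 ± 0.930 CPM with DOX and 25.9 ± 3.24 CPM with DMSO and did not pass.

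Nearly all mitotic genes that could be tested in both groups fell. Of 79 listed G2 and M phase genes, 62 reached the filter in both groups, 60 of these fell, 48 of them at least 2-fold (2.63% of all such genes), and SMC2 and CKS1B, named after their values were seen, did not pass, with a median log2 fold change of -1.82; 16 more reached the filter in the DMSO group only. CDK1, the mitotic kinase, had 1.18, 1.24 and 1.02 CPM with DOX, against 15.04, 12.8 and 13.1 CPM with DMSO, a log2 fold change of -3.57 ± 0.15. PLK1, the polo-like kinase of mitosis, had 1.59, 1.15 and 1.40 CPM with DOX, against 8.45, 8.46 and 8.18 CPM with DMSO, and CCNB1, the B1 cyclin, had 9.21, 9.31 and 9.03 CPM with DOX, against 31.3, 30.9 and 34.3 CPM with DMSO. The highest DOX library was under the lowest DMSO library in each case, and the log2 fold change was -2.58 ± 0.16 for PLK1 and -1.81 ± 0.08 for CCNB1. KIF20A (a cytokinesis kinesin) fell by 3.80, MYBL2 (the transcription factor B-Myb) fell by 3.70 and HMMR (a spindle protein) fell by 3.34. BIRC5 (survivin) was lower by 3.98, but it reached the filter in the DMSO group only. In bulk RNA, fewer cells in mitosis and less RNA per cell cannot be told apart.

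Most S phase genes fell, with exceptions: of 56, 43 fell, 4 rose and 9 did not pass, with a median of -0.72. TK1, thymidine kinase, had 1.11, 0.872 and 1.26 CPM with DOX, against 9.46, 10.3 and 10.1 CPM with DMSO, a log2 fold change of -3.19 ± 0.16. CDC6, which loads the replicative helicase, averaged 2.49 ± 0.360 CPM with DOX and 11.05 ± 0.389 CPM with DMSO, MCM2, a helicase subunit, 9.04 ± 0.655 CPM with DOX and 20.6 ± 0.940 CPM with DMSO, and CCNE2, the E2 cyclin, 1.46 ± 0.225 CPM with DOX and 7.45 ± 0.669 CPM with DMSO. PCNA, the sliding clamp of replication and repair and also a known p53 target, had 391, 431 and 419 CPM with DOX, against 203, 210.0 and 221 CPM with DMSO. TYMS, thymidylate synthase, had 33.8, 37.99 and 34.5 CPM with DOX, against 19.2, 18.7 and 19.9 CPM with DMSO. These genes rose with no overlap between the groups, by 0.97 ± 0.07 for PCNA and 0.88 ± 0.08 for TYMS, against the direction of their list.

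Promoters of the cell-cycle lists are shown because the lists carry different motifs. The CHR motif (TTTGAA) and the CCAAT box (CCAAT), through which the DREAM complex and NF-Y act on mitotic genes, were searched on both strands in the same RefSeq windows, and matches may overlap. The CHR motif was in 43 of 65 G2 and M phase promoters (66.2%), in 3 of 50 S phase promoters (6%) and in 9.88% of the 10198 protein-coding promoters. Both motifs together were in 34 of 65 G2 and M phase promoters (52.3%) and in 4.13% of all. The E2F motif (TTTCCCGC or TTTGGCGC) was in 19 of 50 S phase promoters (38%), 3 of 65 G2 and M phase promoters (4.62%) and 3.7% of all. A match is a description of sequence, not of binding. The stretches below run 5′ to 3′ on the gene's strand and end before the gene's start, with motifs in capitals: CDC20 (the mitotic exit activator) at chr1:43358791-43358942 on the plus strand, MKI67 at chr10:128126431-128126533 on the minus strand, PLK1 at chr16:23678804-23678877 and CDK1 at chr10:60778158-60778197, both on the plus strand.
CDC20: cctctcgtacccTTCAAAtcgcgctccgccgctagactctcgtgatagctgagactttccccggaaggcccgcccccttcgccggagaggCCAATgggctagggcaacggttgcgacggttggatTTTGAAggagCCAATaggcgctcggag
MKI67: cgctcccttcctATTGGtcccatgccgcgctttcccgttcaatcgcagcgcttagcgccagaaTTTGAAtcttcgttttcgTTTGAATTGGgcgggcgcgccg
PLK1: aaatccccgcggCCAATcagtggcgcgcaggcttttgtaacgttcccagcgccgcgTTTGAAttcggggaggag
CDK1: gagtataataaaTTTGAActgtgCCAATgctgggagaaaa

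An E2F motif was present both in S phase genes that fell and in those that rose. DTL, which targets proteins for destruction at PCNA, fell by 2.39 (SE 0.15), and its stretch lies at chr1:212035728-212035747 on the plus strand. The stretch of PCNA lies at chr20:5126662-5126693 on the minus strand and that of TYMS at chr18:657602-657633 on the plus strand, both with the motif read on the opposite strand.
DTL: gcgtgacgtcagTTTGGCGC
PCNA: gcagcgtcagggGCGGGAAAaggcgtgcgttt
TYMS: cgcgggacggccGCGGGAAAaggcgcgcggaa

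The regulators above these genes changed too. Of 20 RB, E2F and DREAM genes that reached the filter in both groups, 2 rose and 8 fell. FOXM1, the transcription factor of mitotic genes, had 3.03, 3.26 and 3.44 CPM with DOX, against 13.3, 15.2 and 14.04 CPM with DMSO (log2 fold change -2.13 ± 0.12). E2F1, an activator, averaged 0.903 ± 0.267 CPM with DOX and 2.22 ± 0.737 CPM with DMSO, and RBL1, the p107 pocket protein, 10.9 ± 0.377 CPM with DOX and 17.6 ± 1.51 CPM with DMSO; both fell. Of 17 G1 cyclins, CDKs and inhibitors, 6 rose and 8 fell. CCND1, cyclin D1, had 1461, 1481 and 1396 CPM with DOX, against 1036, 992 and 1081 CPM with DMSO, and CCND2, cyclin D2, had 16.1, 15.2 and 16.1 CPM with DOX, against 6.43, 5.77 and 5.33 CPM with DMSO. Both D cyclins rose, by 0.48 ± 0.07 and 1.43 ± 0.10, while CDK2 fell by 0.79, the inhibitor CDKN2C (p18) fell by 1.22 and the inhibitor CDKN1B (p27) fell by 0.33.

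**Figure D3:**
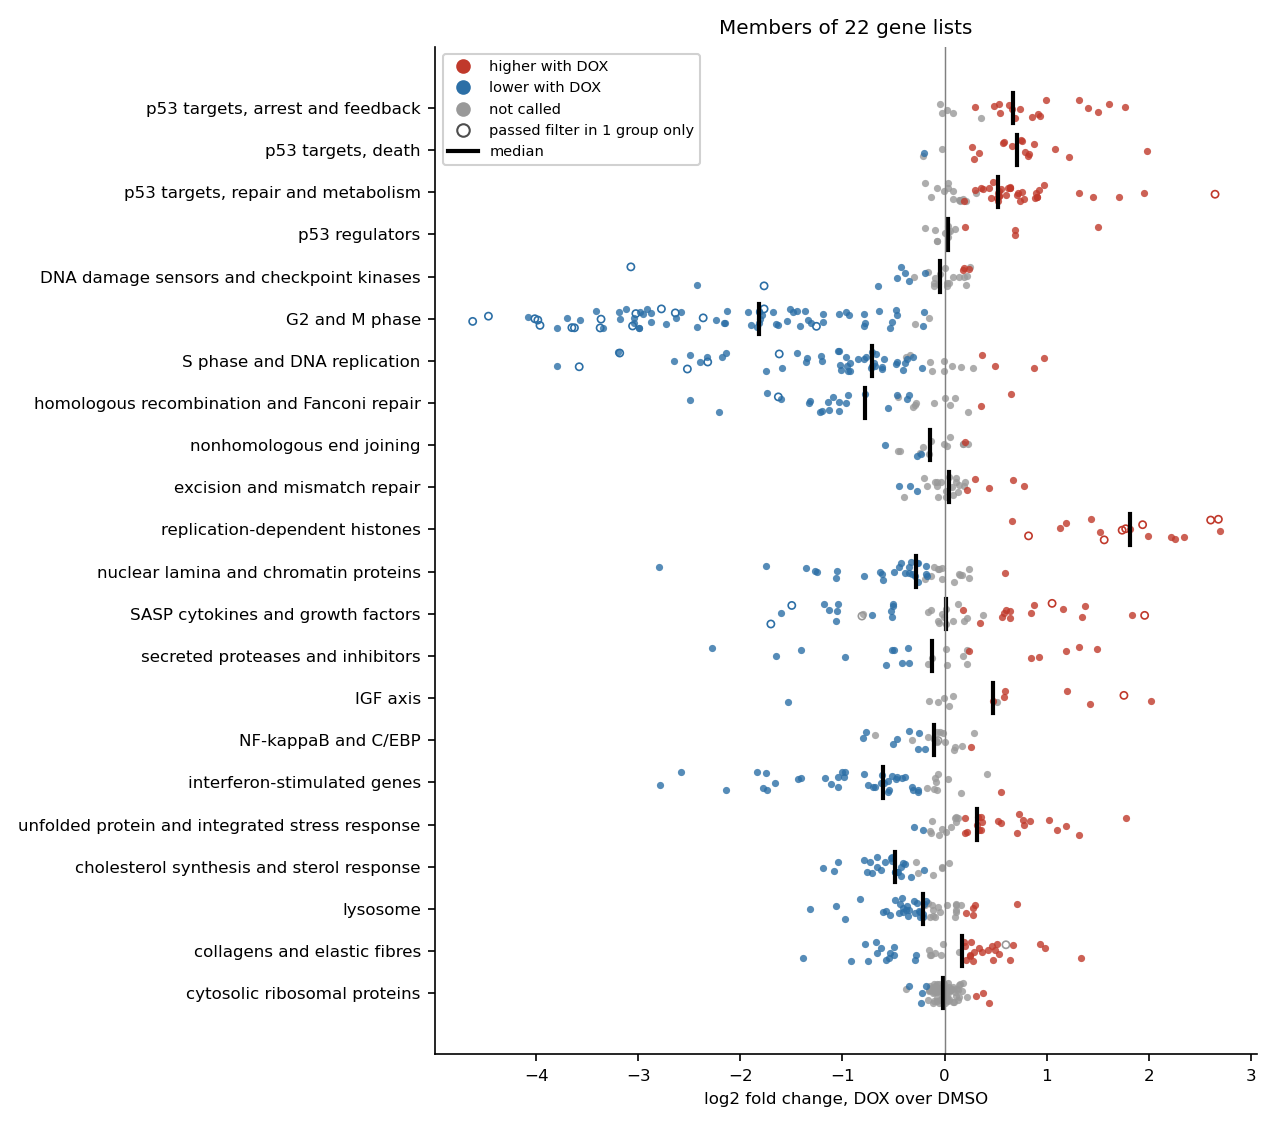
Each row is a gene list, each point a member with its log2 fold change of DOX over DMSO on the x axis, open circles are members that reached the count filter in 1 group only, and black bars are medians of the other members. The G2 and M phase list has its median at -1.82, homologous recombination at -0.78, interferon-stimulated genes at -0.60, the 3 p53 lists between 0.53 and 0.71 and the replication-dependent histones at 1.81.

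Among the DNA repair lists, only homologous recombination and Fanconi repair fell in a share far above that of all genes. Of all genes counted in this way, 16.2% rose and 18.4% fell. Of 31 genes of homologous recombination and Fanconi anemia repair, 20 fell, 2 rose and 9 did not pass, with a median of -0.78; 1 rose without DOX replicate 1 or DMSO replicates 1 or 3. BRCA1, which directs breaks to recombination, had 12.7, 12.2 and 9.96 CPM with DOX, against 23.4, 23.2 and 21.4 CPM with DMSO, a log2 fold change of -0.96 ± 0.10. FANCD2, the monoubiquitinated Fanconi protein, averaged 3.02 ± 0.283 CPM with DOX and 6.61 ± 0.361 CPM with DMSO, and EXO1, a nuclease of end resection, 1.48 ± 0.179 CPM with DOX and 6.85 ± 0.686 CPM with DMSO; both fell. In end joining, 3 of 16 fell and 1 rose, with a median of -0.14, and 0 rose without any 1 library other than DOX replicate 3. XRCC6 (Ku70) had 263, 266 and 262 CPM with DOX, against 266, 253 and 272 CPM with DMSO, and its groups overlapped, while XRCC5 (Ku80) fell by 0.23 (SE 0.06), a call lost without DOX replicate 1 (adjusted p = 0.0507). In excision and mismatch repair 5 of 27 rose and 3 fell, with a median of 0.05. ERCC6, the transcription-coupled repair factor, averaged 97.2 ± 7.43 CPM with DOX and 61.2 ± 4.17 CPM with DMSO and rose by 0.67 ± 0.07.

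Replication-dependent histone genes gave the opposite picture to the rest of S phase. Their mRNAs normally lack a poly(A) tail, and these libraries were selected for poly(A). Of 64 listed genes, 11 reached the filter in both groups and all 11 rose, 10 of them at least 2-fold (1.89% of all such genes); 7 more reached it in the DOX group only, and 46 were not tested. H1-2, a linker histone, had 37.8, 41.7 and 35.4 CPM with DOX, against 9.06, 9.44 and 10.6 CPM with DMSO. H2AC6 had 74.5, 77.6 and 88.2 CPM with DOX, against 21.99, 21.5 and 24.9 CPM with DMSO, and H4C8 had 16.6, 18.6 and 16.7 CPM with DOX, against 2.55, 1.92 and 3.54 CPM with DMSO. No DOX library overlapped a DMSO library in these 3 genes, and the log2 fold changes were 1.99 ± 0.09, 1.81 ± 0.08 and 2.69 ± 0.14 (edgeR, adjusted p = 1.20e-11, 9.20e-12 and 7.46e-11). H2BC21 and H2BC12 rose by 1.44 ± 0.12 and 1.13 ± 0.08. Members of this family are near-identical in sequence, so reads may be divided between them. The share of polyadenylated histone RNA was not measured.

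The nuclear lamina and chromatin list leaned downward: of 40 genes, 26 fell, 1 rose and 13 did not pass, with a median of -0.28; 2 or 3 rose when DOX replicate 1, 2 or 3 or DMSO replicate 3 was left out. Next to LMNB1, the lamin B receptor LBR averaged 32.4 ± 2.72 CPM with DOX and 55.8 ± 1.05 CPM with DMSO and the lamina protein TMPO 36.9 ± 1.85 CPM with DOX and 76.4 ± 4.89 CPM with DMSO. LMNB2 fell by 0.42 (SE 0.07), and LMNA, the lamin A and C gene, fell by 0.26 (SE 0.06). EZH2, the methyltransferase of histone H3 lysine 27, had 4.70, 5.55 and 5.30 CPM with DOX, against 13.6, 13.1 and 12.99 CPM with DMSO, and UHRF1, which directs maintenance DNA methylation, had 8.88, 9.04 and 8.98 CPM with DOX, against 27.8, 31.96 and 30.9 CPM with DMSO. Both fell without overlap, with log2 fold changes of -1.36 ± 0.11 for EZH2 and -1.75 ± 0.09 for UHRF1, and DNMT1 fell by 0.50 (SE 0.07). HMGB1 averaged 253 ± 12.7 CPM with DOX and 286 ± 14.6 CPM with DMSO, a call lost under several alternatives (adjusted p = 0.0425, with a range of 0.00273 to 0.171).

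The secretome did not move as a block. Of 56 SASP cytokines and growth factors, 38 reached the filter in both groups, and of these 13 rose, 11 fell and 14 did not pass, with a median of 0.01. IL1A, the upstream cytokine of the SASP, had 9.32, 9.68 and 10.5 CPM with DOX, against 3.88, 4.01 and 3.43 CPM with DMSO, and IL1B had 14.1, 17.9 and 17.4 CPM with DOX, against 8.69, 9.33 and 8.82 CPM with DMSO. Both rose without overlap, IL1A by 1.37 ± 0.12 and IL1B by 0.88 ± 0.11. The chemokine CCL2 averaged 105 ± 6.66 CPM with DOX and 71.1 ± 6.50 CPM with DMSO and rose by 0.56 ± 0.07, in contrast to IL6 and CXCL8. CXCL1, a neutrophil chemokine, had 7.29, 6.70 and 6.75 CPM with DOX, against 14.6, 14.3 and 16.7 CPM with DMSO, and CXCL12, the ligand of CXCR4, had 203, 220.2 and 177 CPM with DOX, against 644, 585 and 599 CPM with DMSO. Both fell without overlap between the groups, with log2 fold changes of -1.13 ± 0.10 for CXCL1 and -1.61 ± 0.08 for CXCL12.

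Growth factors were among the larger rises. NRG1, a ligand of ERBB receptors, had 130.2, 113 and 125 CPM with DOX, against 32.5, 35.96 and 34.5 CPM with DMSO, and FGF2 had 538, 572 and 465 CPM with DOX, against 211, 204 and 204 CPM with DMSO. Their log2 fold changes were 1.84 ± 0.07 and 1.35 ± 0.07. INHBA, the activin A subunit, averaged 86.1 ± 6.86 CPM with DOX and 38.6 ± 1.83 CPM with DMSO and rose by 1.16 ± 0.07. FGF7, the keratinocyte growth factor made by fibroblasts, averaged 47.5 ± 0.882 CPM with DOX and 108 ± 5.03 CPM with DMSO and fell by 1.18 (SE 0.06).

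Of 23 secreted proteases and inhibitors, 6 rose and 10 fell. The collagenase MMP1 had 273, 291 and 285 CPM with DOX, against 862, 884 and 928 CPM with DMSO, while the stromelysin MMP3 had 117, 128 and 125 CPM with DOX, against 49.8, 46.2 and 52.9 CPM with DMSO. These neighbours on the same chromosome moved in opposite directions without overlap, with log2 fold changes of -1.66 ± 0.07 for MMP1 and 1.31 ± 0.07 for MMP3. MMP11 fell by 2.28 (SE 0.08) and SERPINF1, an inhibitor of vessel growth, fell by 1.40 (SE 0.07), whereas ADAMTS5, an aggrecanase, rose by 1.49 ± 0.07. The insulin-like growth factor (IGF) axis was the secreted list with the largest share of rises of these 3: 6 of 13 rose and 1 fell (2 without DOX replicate 1), with a median of 0.47. PAPPA, the protease that frees IGF from its binding proteins, had 479, 421 and 468 CPM with DOX, against 113, 119.8 and 104 CPM with DMSO. IGFBP5 had 5951, 5232 and 6216 CPM with DOX, against 2168, 2239.7 and 2100.2 CPM with DMSO, and IGFBP3 had 1637, 1693 and 1691 CPM with DOX, against 702, 724 and 758 CPM with DMSO. There was no overlap in any of these genes, with log2 fold changes of 2.02 ± 0.07, 1.42 ± 0.08 and 1.20 ± 0.07. IGFBP7 rose by 0.59 ± 0.07, and STC1, an inhibitor of PAPPA, fell by 1.53 (SE 0.07).

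**Figure D4:**
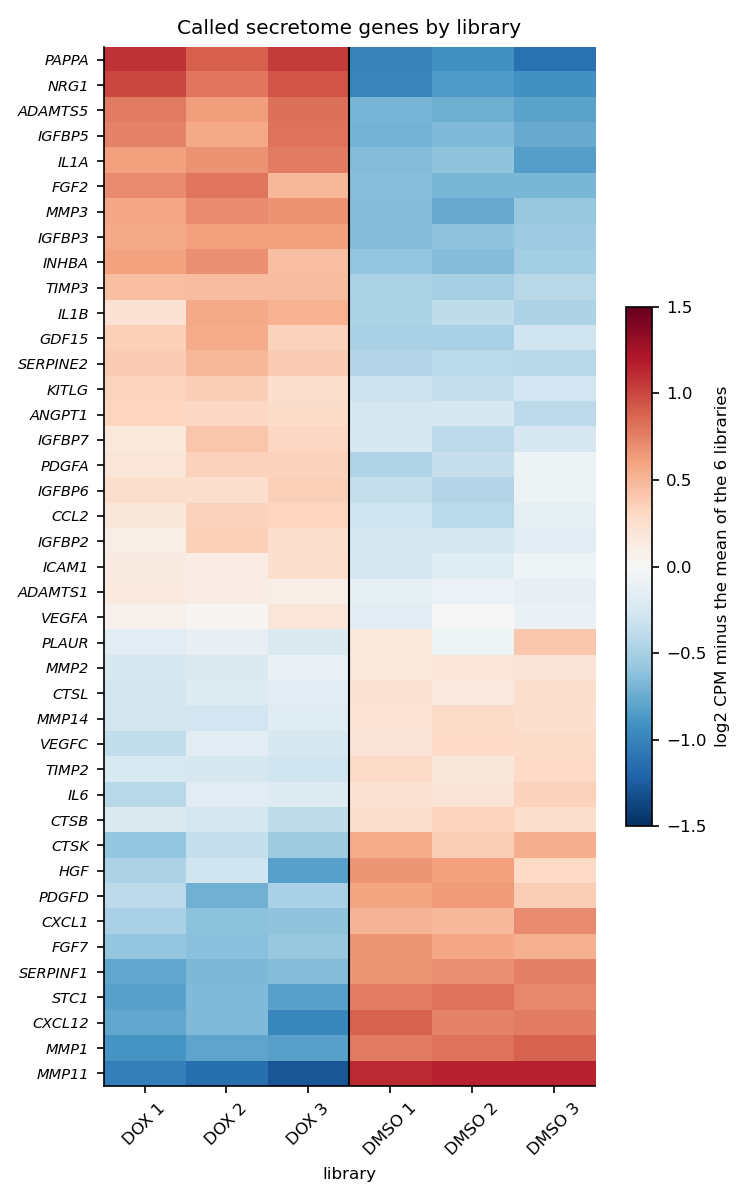
Rows are 41 genes of the SASP, protease and IGF lists that changed and averaged 5 CPM or more in either group, columns are the 3 DOX libraries and then the 3 DMSO libraries, and colour is log2 CPM minus the mean of the 6 libraries. The 23 genes that rose, from PAPPA downward, and the 18 that fell, ending with MMP11, span values of -1.28 to 1.16.

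Interferon-stimulated genes fell widely and some NF-kappaB genes fell. Of 23 NF-kappaB and C/EBP genes, 8 fell and 1 rose (2 without DMSO replicate 1); CEBPB, a transcription factor of the SASP, had 36.7, 44.1 and 33.9 CPM with DOX, against 69.8, 59.8 and 69.4 CPM with DMSO, and NFKB1 had 41.6, 44.8 and 41.8 CPM with DOX, against 55.2, 54.1 and 54.2 CPM with DMSO. Both fell, with log2 fold changes of -0.80 ± 0.09 for CEBPB and -0.35 ± 0.07 for NFKB1. Of 46 interferon-stimulated genes, 36 fell, with a median of -0.60, and TRIM22, which is also a p53 target and is named after its values were seen, rose. MX1, an antiviral GTPase, had 55.1, 53.9 and 52.2 CPM with DOX, against 186, 195 and 197 CPM with DMSO, a log2 fold change of -1.84 ± 0.06 (adjusted p = 2.83e-13). OAS1, a synthetase that senses double-stranded RNA, had 1.89, 2.16 and 1.95 CPM with DOX, against 12.7, 13.9 and 14.7 CPM with DMSO, and ISG15, an interferon-induced modifier, had 10.99, 13.1 and 17.03 CPM with DOX, against 26.9, 24.98 and 30.1 CPM with DMSO. The groups did not overlap in any of these genes.

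Sensors of cytosolic nucleic acid fell in 7 of 15 cases and rose in 1 (2 without DOX replicate 2, and 0 without DOX replicates 1 or 3 or DMSO replicates 1 or 2). STING1, the adaptor of the DNA sensor cGAS, averaged 20.7 ± 1.21 CPM with DOX and 28.2 ± 2.23 CPM with DMSO, IFI16 222 ± 3.40 CPM with DOX and 350.1 ± 4.33 CPM with DMSO and IFIH1, an RNA sensor, 52.6 ± 2.45 CPM with DOX and 95.5 ± 4.59 CPM with DMSO; all 3 fell. SAMHD1, which limits nucleotide pools, fell by 1.01 (SE 0.07), and CGAS averaged 5.65 ± 0.264 CPM with DOX and 6.69 ± 1.08 CPM with DMSO and did not pass. Among 21 genes of antigen presentation and ligands of natural killer cells, 3 rose and 5 fell (14.3% and 23.8%). The shares over all genes counted in this way were 16.2% and 18.4%. B2M, the light chain of HLA class I, averaged 915 ± 92.7 CPM with DOX and 1302 ± 48.8 CPM with DMSO and fell by 0.51 (SE 0.07), while PVR, a ligand of the receptor DNAM-1, averaged 38.9 ± 3.77 CPM with DOX and 23.3 ± 0.697 CPM with DMSO and rose. ULBP2, a ligand of NKG2D, had 2.66, 2.80 and 2.88 CPM with DOX, against 1.496, 1.37 and 1.37 CPM with DMSO and rose by 0.97 ± 0.19.

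Stress and metabolic programmes changed in separate directions. Of 34 genes that answer to unfolded protein or to the integrated stress pathway, 21 rose, 2 fell and 11 did not pass, with a median of 0.32; 1 fell without DOX replicate 3 or DMSO replicates 1 or 3. The rises included genes of amino acid supply known as targets of ATF4. PSAT1, of serine synthesis, had 116, 124 and 109 CPM with DOX, against 35.9, 31.1 and 34.3 CPM with DMSO. MTHFD2, a mitochondrial folate enzyme, averaged 155 ± 10.2 CPM with DOX and 68.1 ± 2.24 CPM with DMSO, and DDIT3, the stress factor CHOP, rose by 0.77 ± 0.08. PSAT1 rose by 1.78 ± 0.07 and MTHFD2 by 1.19 ± 0.07, while ATF4 itself averaged 639.5 ± 37.7 CPM with DOX and 590.2 ± 42.7 CPM with DMSO and did not pass at the RNA level. Among 28 targets of NRF2, the antioxidant transcription factor, 11 rose and 6 fell. SLC7A11, the cystine importer, had 225, 212 and 179.6 CPM with DOX, against 61.6, 57.9 and 53.8 CPM with DMSO and rose by 1.83 ± 0.08. NQO1, a quinone reductase, rose by 0.62 ± 0.07 and GCLM, of glutathione synthesis, by 0.59 ± 0.08, whereas HMOX1, heme oxygenase, fell by 0.40 (SE 0.08).

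Sterol and lysosomal genes leaned downward. Of 30 genes of cholesterol synthesis and the sterol response, 24 fell and 6 did not pass, with a median of -0.48. SCD, the stearoyl-CoA desaturase, had 517, 463 and 509 CPM with DOX, against 1115, 1170.4 and 1104 CPM with DMSO. It fell by 1.19 (SE 0.07), with no overlap between the groups. Of 48 lysosomal genes, 27 fell, 5 rose and 16 did not pass, with a median of -0.21; 3 rose without DOX replicate 1 or DMSO replicate 2, and 2 without DMSO replicate 1. CTSK, cathepsin K, averaged 712 ± 60.8 CPM with DOX and 1401 ± 97.5 CPM with DMSO and NPC1, the lysosomal cholesterol exporter, 73.3 ± 4.17 CPM with DOX and 182 ± 9.72 CPM with DMSO, and both fell. LAMP1, a lysosomal membrane protein, fell by 0.24 (SE 0.06), and FUCA1, a fucosidase and p53 target, averaged 66.8 ± 3.33 CPM with DOX and 40.96 ± 2.42 CPM with DMSO and rose. Of 29 autophagy genes 3 rose and 3 fell, both smaller shares than the 16.2% and 18.4% of all genes counted in this way. SQSTM1, the p62 receptor, averaged 622 ± 23.5 CPM with DOX and 665 ± 19.2 CPM with DMSO and did not pass.

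Matrix genes changed in both directions. Of 42 collagen and elastic fibre genes, 21 rose and 14 fell, with a median of 0.17. COL1A1, a chain of type I collagen, had 13910.2, 12760.1 and 13747 CPM with DOX, against 8933, 9563 and 9799.5 CPM with DMSO, and ELN, elastin, had 216, 199.5 and 235 CPM with DOX, against 88.1, 84.997 and 85.3 CPM with DMSO. COL6A3, of type VI collagen, had 5150.0, 4358 and 5245 CPM with DOX, against 7095, 7482 and 6831 CPM with DMSO. The groups did not overlap in any of these 3 genes, and the log2 fold changes were 0.51 ± 0.07, 1.33 ± 0.07 and -0.54 ± 0.08. Of 25 myofibroblast and TGF-beta response genes 9 rose and 4 fell: CCN2, connective tissue growth factor, had 318, 355 and 322 CPM with DOX, against 109.9, 105 and 105 CPM with DMSO and rose by 1.64 ± 0.07, and POSTN, periostin, rose by 1.33 ± 0.07, while TAGLN, a smooth muscle actin binder, averaged 257 ± 5.92 CPM with DOX and 245 ± 6.89 CPM with DMSO and did not pass. VIM, vimentin, had 1733, 1998 and 1936 CPM with DOX, against 2854, 2832 and 3091 CPM with DMSO and fell by 0.63 (SE 0.07), and PDGFRA, a growth factor receptor of fibroblasts, averaged 334 ± 16.5 CPM with DOX and 665 ± 39.6 CPM with DMSO and fell by 0.99 (SE 0.07).

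The title of the series names replicative and doxorubicin-induced senescence side by side, and the DOX effect was tested against the P33 effect (P33 over P3) in 1 model of 12 libraries. The DOX and DMSO columns were counted otherwise than the passage columns, so only the 2 log2 fold changes are set against each other, not levels. The difference passed for 8263 of 16687 genes (49.5%), 4181 of them with the DOX effect above the P33 effect (25.1%) and 4082 below (24.5%). Of the genes tested, 756 had no read in P3 and P33, so they have no measured P33 effect, and all the calls lay among the other 15931, of which 51.9% passed, 26.2% above and 25.6% below. CDKN1A rose by 1.75 with DOX and 0.54 at P33, a difference of 1.20 ± 0.08 (edgeR, adjusted p = 7.04e-13). MKI67 changed by -4.10 with DOX and -1.74 at P33 and LMNB1 by -2.82 with DOX and -1.56 at P33, so both fell further with DOX. CXCL8 changed by -1.52 with DOX and 3.57 at P33, the widest gap in the panel (difference -5.09 ± 0.37), and IL6 by -0.54 with DOX and 0.72 at P33. GDF15 rose by 0.82 with DOX and 2.38 at P33, and CDKN2B by 0.99 with DOX and 1.82 at P33. The difference for CDKN2A did not pass (edgeR, adjusted p = 0.0811).

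The lists showed where the 2 changes part. Counts and medians here are over members that passed a filter on 12 libraries, which a gene can reach through 1 group, and that had a read in P3 or P33. Interferon-stimulated genes had a median of -0.63 with DOX and 1.19 at P33, and the DOX effect was lower for 43 of 46, RSAD2, an antiviral enzyme, among them with -2.61 for DOX and 4.17 for P33. The SASP list had medians of -0.02 with DOX and 0.72 at P33, with 24 of 48 lower and 9 higher for DOX. Ribosomal protein genes had medians of -0.04 with DOX and -0.94 at P33, with 68 of 73 higher for DOX. The G2 and M phase list had medians of -2.16 with DOX and -1.11 at P33, and 58 of 78 were lower for DOX. The p53 death targets had medians of 0.68 with DOX and 0.16 at P33, with 10 of 18 higher for DOX. The arrest and feedback list had medians of 0.65 with DOX and 0.64 at P33. Its members still differed in both directions, with 9 of 22 higher and 6 lower for DOX.

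**Figure D5:**
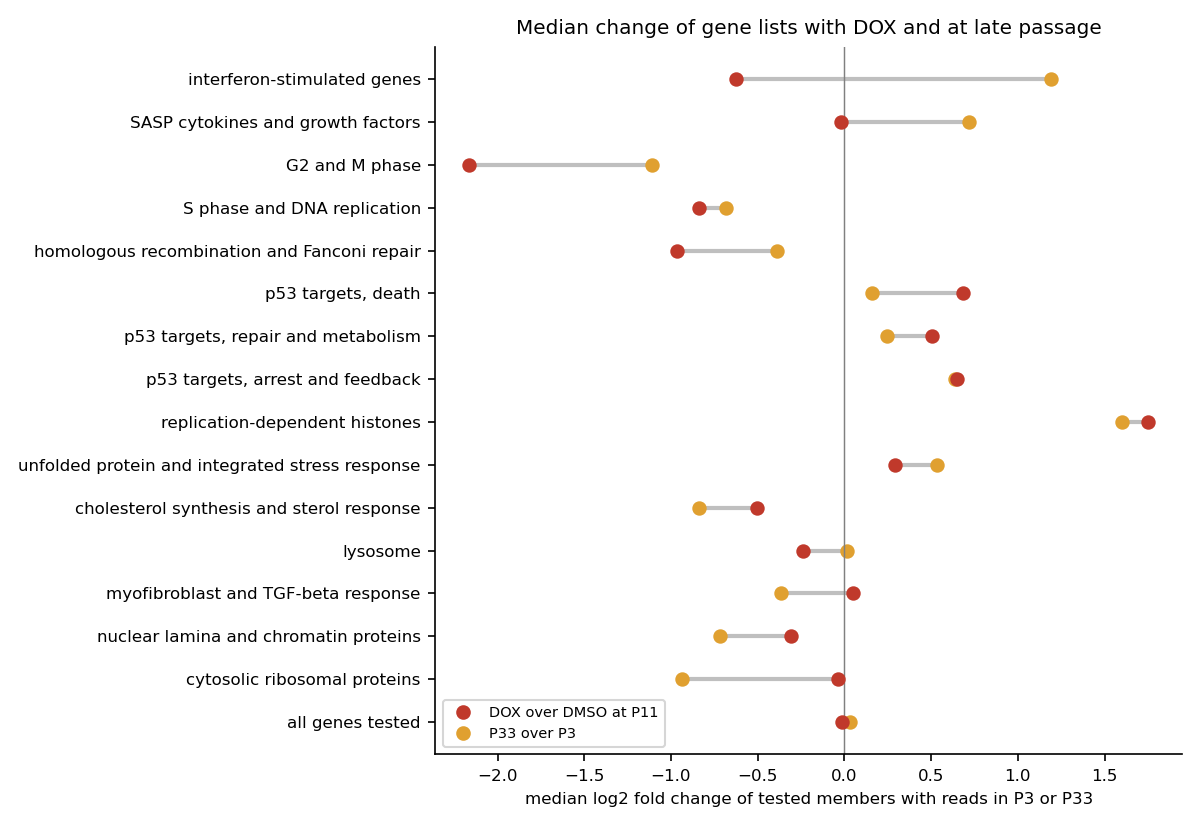
Each row is a gene list, with the median log2 fold change of its tested members with a read in P3 or P33 for DOX over DMSO at P11 (red) and for P33 over P3 (yellow) on the x axis. The medians lie on opposite sides of 0 for interferon-stimulated genes (-0.63 with DOX and 1.19 at P33), and the ribosomal list is near 0 with DOX alone (-0.04 with DOX and -0.94 at P33).

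Some values above rest on genes whose reads can be ambiguous. ATR, BBC3, BCL2, BRCA1, CBR1, CCND2, CHEK1, DDIT3, DNMT1, DTL, FANCD2, FAS, FGF2, GDF15, GLB1, HMGB1, INKA2, LMNB2, MCL1, MDM2, MTHFD2, NPC1, NRG1, PCNA, PDGFRA, PTCHD4, PVR, RB1, RBL1, SESN1, TAGLN, TIGAR, TNFRSF10C, TOP2A, TOP2B and UHRF1 overlap another annotated gene on the same strand, and many more overlap one on the opposite strand. A strand setting cannot separate reads of genes that overlap on the same strand. No source used here gives the strand setting of the counting or its treatment of reads in overlapping genes. The values of genes with either kind of overlap are uncertain to that extent.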

How the data were processed

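RNA of BJ cells was poly(A)-selected, primed with random hexamers, amplified by PCR and sequenced on a DNBSEQ-T7, per the labels' protocols. The deposited table holds raw read counts per gene, which the authors made without normalization; FastQC 0.11.9, cutadapt 3.3, HISAT2 2.1.0, SAMtools 1.11, Subread, featureCounts 2.0.1 and DESeq2 1.34.0 and the build GRCh38.p13 are named in the submitters' processing notes. No source used here gives the strand setting or the treatment of reads in overlapping genes. In the deposited counts, genes lying inside another gene on the same strand have reads in the DOX and DMSO columns (3950 of 9429 genes) and none in the passage columns (0 of 9429), so levels were not compared between those columns. The labels name the molecule as genomic DNA against an RNA protocol.

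Genes were kept by edgeR's filterByExpr with a minimum count of 10 (14826 of 61544). Counts were scaled by TMM (factors of 0.985 to 1.01) and DOX was tested against DMSO over the 6 libraries with the quasi-likelihood test of edgeR 4.0.16 in R 4.3.3, with Benjamini-Hochberg adjustment over all genes tested. The DOX effect minus the P33 effect was tested as a contrast over 12 libraries (16687 genes). On simulated counts with 200 changed genes, the DOX test recovered 93% of 2-fold and 98% of 4-fold changes over 14826 genes. The difference test recovered 86% and 94% over 16687 genes. Of the calls, 5.45% were false in the DOX test and 5.76% in the difference test. Every gene was simulated with the same spread, so these rates need not hold for the data. Totals of 18174331 to 27194352 counts and a biological coefficient of variation of 6.43% set the precision, which covers neither PCR duplication nor the design.

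Genes named are those of the senescence panel, members marked as key to their list, up to 4 further members of each list by size of change with at least 5 CPM in the higher group, the 12 protein-coding genes with the largest change in each direction and the 4 in each direction among long noncoding RNA genes, the 5 largest gains and losses in CPM, and for the difference the panel and the 3 largest in each direction. Genes and lists were chosen with earlier results of these data known. Alternatives were no count filter, a mean of at least 10 CPM, DESeq2 size factors, DESeq2 1.42.0, limma-voom (limma 3.58.1), the replicate number as a block, all 21 libraries, no overlapping genes and each library left out. Promoter windows are those of RefSeq on GRCh38.p14. Some genes of the lists are counted with their list and not reported here by name.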

Additional observations from a re-analysis of the deposited data

How the results depend on the processing

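Without a count filter 838 genes rose at least 2-fold. With a mean of at least 10 CPM 1779 fell, and 98 and 145 rose and fell at least 2-fold; for the DOX effect minus the P33 effect, 2688 were higher, and 251 and 525 were higher and lower by at least 2-fold. Without genes that overlap another on either strand 4064 were tested, of which 730 rose and 813 fell, 147 and 177 at least 2-fold. Leaving out genes with a same-strand overlap, which was chosen after seeing the data, 321 rose at least 2-fold. These alternatives test fewer or more genes. With each library left out in turn, 1908 to 2471 genes rose and 2230 to 2721 fell, 484 to 531 and 502 to 537 at least 2-fold, and 46.1 to 47.8% of calls were rises. For the difference the ranges were 3929 to 4209 higher and 3679 to 4016 lower, 815 to 903 and 1653 to 1796 at least 2-fold, and 50.7 to 52.1% higher. With the replicate number as a block, 4812 of the 5212 calls were shared and 0 were opposite. Same-numbered DOX and DMSO libraries deviated together with r of 0.0725, -0.152 and 0.0628, and differently numbered ones with r of -0.178 to 0.116. These values show no pairing by number, but 3 libraries per group are too few to exclude it. DESeq2 shared 4580 calls, limma-voom 5135 and DESeq2 size factors 5185, each with 0 opposite, and no scaling moved the median log2 fold change by over 0.1. Among the genes chosen by the naming rules and given values in the report, the calls of HMGB1, ATM, BAX and XRCC5 were lost under at least 1 alternative. The call of APAF1, which was named after its values were seen, was also lost with single libraries left out. Counts of few members moved most when 1 library was left out. In all genes near the filter, depth limits the precision.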

Other observations

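Some large rises among protein-coding genes with at least 5 CPM in the higher group fell outside the lists of the report. CLCA2, a p53-inducible membrane protein, had 151, 150.1 and 156 CPM with DOX, against 18.4, 17.95 and 18.5 CPM with DMSO, a log2 fold change of 3.06 ± 0.07 (edgeR, adjusted p = 1.64e-15), and its groups did not overlap. NRCAM, a neuronal cell adhesion molecule, rose by 2.79 ± 0.15, OLR1, a scavenger receptor of oxidised lipoprotein, by 2.45 ± 0.17, and GFRA1, a receptor of the growth factor GDNF, by 2.34 ± 0.13. KRT17, a keratin of injured epithelium, rose by 2.31 ± 0.13, as did CLDN1, a tight junction protein of the keratinocyte marker list, by 2.34 ± 0.16. Of the 5 tested markers of that list, 1 rose and 0 fell. Of those under the filter, TP63 had 30 reads with DOX and 4 with DMSO, and CDH1 had 37 and 18. KRT5 had 0 reads in both groups.

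Long noncoding RNA genes rose about as often as protein-coding genes and fell in a smaller share of cases, and this difference was not tested. Of 1241 that did not pass the filter through 1 group alone, 15.6% rose and 5% fell, with a median log2 fold change of 0.15, against 16.6% that rose and 20.4% that fell of 12098 protein-coding genes with a median of -0.02. Their share of all counts was 1.57 to 1.69% with DOX and 1.62 to 1.77% with DMSO, and these ranges overlap. LINC01133 had 9.40, 8.53 and 9.96 CPM with DOX, against 3.07, 3.73 and 3.75 CPM with DMSO and did not overlap between the groups. Among protein-coding genes, those that span over 200 kb rose in 24.1% and fell in 23.3% of 1023 cases counted in the same way, and those that span under 5 kb rose in 11.3% and fell in 16.7% of 832. Over all tested genes above 200 kb, the median difference of a library from the DMSO mean, on the log2(CPM + 0.5) scale, was 0.0763, -0.0309 and 0.0330 in the DOX libraries and 0.00339, 0.0412 and -0.0482 in the DMSO libraries, and these groups overlap. Across the 12581 genes, which are not independent replicates, the log10 of the span and log2 fold change had a Pearson r of 0.0602. The Spearman rho of span and log2 fold change was 0.0422. Mitochondrially encoded mRNAs rose in 4 of 13 cases (7 of 13 without DOX replicate 3), beside the mitochondrial shares given above. Among immediate early genes, 7 of 22 rose and 5 fell (3 fell over all tested without DMSO replicate 3): DUSP1, a phosphatase of stress kinases, rose by 0.79 ± 0.08 and KLF6, a growth regulator, fell by 1.04 (SE 0.07).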
